A study of Rattus norvegicus with 6 samples.

Results

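The CC chemokines are small secreted proteins, named for a pair of adjacent cysteines, that attract leukocytes. The 10 genes Ccl2, Ccl3, Ccl4, Ccl5, Ccl6, Ccl7, Ccl11, Ccl19, Ccl20 and Ccl21 were taken by gene name from a table of 30957 genes, and all 10 matched a row. RNA was measured by sequencing after depletion of ribosomal RNA in flexor digitorum longus, a hind limb muscle, of wild-type Sprague-Dawley rats. Acute osteofascial compartment syndrome (ACS), in which pressure inside the muscle compartment rises and blood flow falls, was induced with a low-elastic band tied around the skin at the knee. The control group held 3 libraries at 0 h and the ACS group 3 libraries at 18 h. The treatment field reads ACS for all 6 libraries, and the titles separate control from ACS. The controls were from 0 h, so ACS and the 18 h that passed cannot be told apart here. Age and sex were not given in the sources used here, nor was whether each library came from a separate rat, so p-values measure the spread between these libraries, which may be technical.

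The ligands act through G protein-coupled receptors on leukocytes, and atypical receptors bind them without that signal and take them up. Inflammatory members such as Ccl2 are made on injury by resident macrophages, endothelium and fibroblasts and draw in monocytes and other cells, whereas homeostatic members such as Ccl19 and Ccl21 guide lymphocytes and dendritic cells in lymphoid tissue and lymph vessels. In injured muscle, monocytes drawn in by Ccl2 become macrophages that clear dead fibres.

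Library totals ran from 14340865 to 21003928 counts. ACS replicate 1 had the lowest total and stood apart from the others: 43.4% of its counts came from the mitochondrial genome, against 4.82% to 8.60% in the other 5 libraries, so log2 differences and count ratios of the 10 genes are also given without it where it changed a call, a direction or the size. Of 10 matched markers of skeletal muscle fibres, all 10 were tested and 0 passed the test by edgeR, with 0 at an unadjusted p under 0.05. Their summed level was 138048 to 160167 CPM in the controls and 90239, 126091 and 214810 CPM in ACS replicates 1, 2 and 3. CPM values here are counts relative to the library total after scaling by the trimmed mean of M values (TMM).

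Of the 10 genes, 5 had a promoter entry in RefSeq on build GRCr8, and 4 are shown because they stand for the genes that were higher in every ACS library and for one whose groups overlapped. Each run is the 250 bases before the start site, on the gene's strand. Capitals mark matches on either strand to the NF-kB consensus, the AP-1 motif TGANTCA or the TATA box TATAAA.
Ccl7: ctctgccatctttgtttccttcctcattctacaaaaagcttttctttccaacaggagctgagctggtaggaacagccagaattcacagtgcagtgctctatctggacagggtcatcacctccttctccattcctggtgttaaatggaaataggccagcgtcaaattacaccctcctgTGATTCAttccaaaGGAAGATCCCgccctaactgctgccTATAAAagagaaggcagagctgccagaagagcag
Ccl20: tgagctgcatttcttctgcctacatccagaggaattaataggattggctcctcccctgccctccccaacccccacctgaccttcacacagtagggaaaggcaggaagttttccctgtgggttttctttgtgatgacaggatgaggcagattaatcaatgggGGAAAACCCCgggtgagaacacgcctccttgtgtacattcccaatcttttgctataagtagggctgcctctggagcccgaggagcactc
Ccl6: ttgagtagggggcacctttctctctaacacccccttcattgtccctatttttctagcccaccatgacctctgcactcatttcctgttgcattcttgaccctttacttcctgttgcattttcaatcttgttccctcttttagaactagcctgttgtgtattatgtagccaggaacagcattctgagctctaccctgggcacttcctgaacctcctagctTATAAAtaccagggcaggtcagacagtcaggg
Ccl21: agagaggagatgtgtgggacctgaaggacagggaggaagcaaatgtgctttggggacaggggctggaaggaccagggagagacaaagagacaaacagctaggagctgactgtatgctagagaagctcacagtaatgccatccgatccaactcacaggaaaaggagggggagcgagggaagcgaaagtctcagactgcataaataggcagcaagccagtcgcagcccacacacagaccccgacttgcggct

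These lie at chr10:67513845-67514094 (plus strand) for Ccl7, chr9:91836909-91837158 (plus strand) for Ccl20, chr10:68883367-68883616 (minus strand) for Ccl6 and chr5:61777516-61777765 (minus strand) for Ccl21. The Ccl7 window held an NF-kB match, GGAAGATCCC, whose first base was at -59 from the start site, an AP-1 match, TGATTCA, at -73 and a TATA box at -34. The Ccl20 window held an NF-kB match, GGAAAACCCC, at -89, and the Ccl6 window a TATA box at -32. No match to the 3 motifs was found in the windows of Ccl21 and Ccl19. Among 33469 promoter windows of the same length, 6.33% held the NF-kB match, 6.34% the AP-1 match and 12.9% the TATA box. None of the matches overlapped another, and a match describes letters, not a bound site.

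Ccl2 and Ccl7, which draw in monocytes, had higher levels in every ACS library than in any control. Ccl2, the ligand of Ccr2, had 20, 32 and 4 counts in control replicates 1, 2 and 3 and 1868, 125 and 205 counts in ACS replicates 1, 2 and 3. In CPM these were 0.974, 1.55 and 0.165 against 174.7, 6.43 and 11.4. In bulk muscle, fewer cells of a type and less RNA per cell cannot be told apart, nor can more of either. The lowest ACS library lay above the highest control, and ACS replicate 1 stood far above the other two. Ccl2 was higher by 6.17 on the log2 scale (SE 1.42, 95% interval 2.93 to 9.41) in edgeR's quasi-likelihood test, with a Benjamini-Hochberg adjusted p of 0.05001 that lay just above the threshold of 0.05. Summed over each group and scaled by library totals, the counts gave a ratio of 43.5 (exact 95% interval 33.4 to 57.7, which covers counting error only, as do all such intervals here). Without ACS replicate 1 the log2 difference was 3.32 with an adjusted p of 0.0231, past the threshold, and the count ratio was 8.97 (6.74 to 12.1). Without ACS replicate 2 or 3 the log2 difference was 6.65 and 6.66 (adjusted p = 0.0466 and 0.0255). Leaving out control replicate 1, 2 or 3 gave 6.17, 6.76 and 5.60, with adjusted p-values of 0.201, 0.178 and 0.169. In each of these last 3 fits 0 genes of all those tested passed in either direction, so the loss is not particular to Ccl2.

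Ccl7, which binds Ccr1, Ccr2 and Ccr3, was the less abundant of the pair. It had 6, 3 and 2 counts in the controls and 90, 15 and 18 in ACS, so that the lowest ACS library again exceeded the highest control. The log2 difference was 4.23 (SE 1.07, 95% interval 1.78 to 6.68) with an adjusted p of 0.0605, and the count ratio was 12.4 (6.69 to 25.5). Without ACS replicate 1 these values were 2.34 (adjusted p = 0.0769) and 4.57 (2.25 to 10.02).

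**Figure D1:**
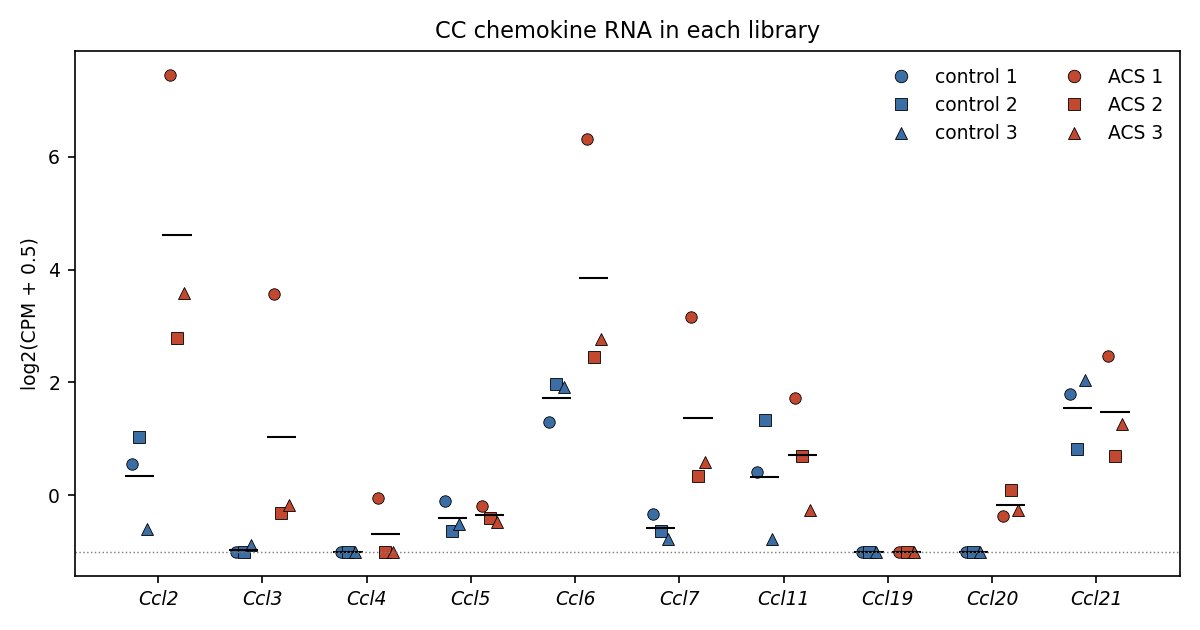
Level of each CC chemokine gene in each of the 6 libraries, as log2(CPM + 0.5) with TMM-scaled CPM, for control at 0 h and ACS at 18 h. Each point is a library, each bar the mean of the group's points, and the dotted line the level at 0 counts. The 3 ACS points of Ccl2, Ccl3, Ccl6, Ccl7 and Ccl20 lie above all 3 control points, and ACS replicate 1 is the highest of the 3 except for Ccl20.

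Ccl6, a chemokine of rodents made by myeloid cells, was the second gene with a large ACS level. Its counts were 40, 71 and 79 in the controls and 845, 97 and 114 in ACS, or 1.95, 3.43 and 3.26 CPM against 79.0, 4.99 and 6.36 CPM. The groups did not overlap, but ACS replicates 2 and 3 lay close to the controls and ACS replicate 1 held 87.4% of the ACS CPM. The log2 difference was 3.37 (SE 1.02, 95% interval 1.05 to 5.69; adjusted p = 0.0926), and 0.97 without ACS replicate 1 (adjusted p = 0.131). The count ratio of 6.16 (5.27 to 7.22) became 1.69 (1.38 to 2.07) without that library.

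Ccl3, Ccl4 and Ccl5, inflammatory ligands, differed among themselves. Ccl3, made by activated macrophages, had 0, 0 and 1 counts in the controls and 122, 6 and 7 in ACS, with no overlap between groups. This gene did not pass the filter on low counts and has no main test. Its count ratio was 150 (149.5, exact interval 26.4 to 5949), and without ACS replicate 1 it was 19.8 (2.97 to 841). Ccl4 was listed at 0 in all 3 controls and in ACS replicates 2 and 3, with 5 counts in ACS replicate 1. With the control group set to a floor of 3 counts, the Ccl4 ratio of ACS over control was 1.85. That ratio leaves out the counting error of the 5 ACS counts and so is no lower bound. It rests on ACS replicate 1, without which both groups were at or under the floor. Ccl5, which T cells and other cells make, had 9, 3 and 5 counts in the controls and 4, 5 and 4 in ACS. Its groups overlapped and its count ratio was 0.847 (0.378 to 1.85), so a difference in either direction within that interval was not detectable at this depth. A short gene model on the opposite strand inside Ccl3 had 0, 0 and 2 counts in the controls and 0 in each ACS library. The strand setting of the counting was not given in the sources used here.

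Ccl20, the ligand of Ccr6, was listed at 0 in all 3 controls and had 3, 11 and 6 counts in ACS replicates 1, 2 and 3. With the control group at that floor its ratio of ACS over control was 7.38, again without the counting error of the ACS counts. Here ACS replicate 1 was not the highest library: it held 23.8% of the ACS CPM, against 90.7% for Ccl2. The ratio against the floor was 8.63 without ACS replicate 1, and its lowest value on leaving out a library was 4.72. Ccl20 also did not pass the filter on low counts.

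Ccl11, or eotaxin, attracts eosinophils through Ccr3, and its groups overlapped. It had 17, 42 and 2 counts in the controls and 30, 22 and 6 in ACS, with a log2 difference of 0.50 (SE 0.996, 95% interval -1.77 to 2.77; adjusted p = 0.787). Its direction was the opposite, at -0.40, without ACS replicate 1, and at -0.10 without control replicate 3.

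Of the homeostatic ligands 1 was detected. Ccl21, made by lymphatic endothelium, had the highest mean level per length of the 10 in the controls, though Ccl6, Ccl11 and Ccl2 exceeded it in control replicate 2, with 61, 26 and 88 counts there and 54, 22 and 34 in ACS. Its groups overlapped, and its log2 difference was 0.01 (SE 0.628, 95% interval -1.42 to 1.44; adjusted p = 0.995), so that a difference of either sign of up to about that interval's ends could not be told from none. The direction depended on scaling: with library totals in place of TMM the log2 difference was -0.41, and the count ratio on that scale was 0.696 (0.543 to 0.889). Without ACS replicate 1 the log2 difference was -0.80. Ccl19, the other ligand of Ccr7, had 0 counts in all 6 libraries.

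Of the 10 genes, 5 passed the filter on low counts (Ccl2, Ccl6, Ccl7, Ccl11 and Ccl21). By edgeR 0 of these 5 passed the adjusted threshold, and 3 had an unadjusted p under 0.05 (Ccl2, Ccl6 and Ccl7). Across all 12873 genes tested, 3.43% passed in the higher direction, 0.707% in the lower, 4.14% in either, and 23.5% had an unadjusted p under 0.05. DESeq2, which was run on genes without that filter, called 2 of the 10 higher (Ccl7 and Ccl20) and gave no p for Ccl2, Ccl3 and Ccl6 and no adjusted p for Ccl4. limma, as voom or on log2(FPKM + 1), called 0, and limma-voom with quality weights, chosen after seeing the data, called Ccl2 (adjusted p = 0.0242) and Ccl7 (0.0480). With no filter, over 18776 genes, edgeR called 5 higher: Ccl2 (adjusted p = 0.0151), Ccl3 (0.0253), Ccl7 (0.0305), Ccl20 (0.0447) and Ccl6 (0.0486). Of all genes in these fits, 9.32% passed in either direction with DESeq2, 11.0% with quality weights and 4.84% with edgeR and no filter. The fitted fold changes of Ccl3 and Ccl20 depend on the prior count and are no bounds. The median log2 difference of the 5 tested genes was 3.37, beside -0.01 over all genes tested. Without ACS replicate 1 the median of the 5 was 0.97, so that 1 library sets its size. Ccl7, with 6, 3 and 2 counts in the controls, passed the filter only through its ACS counts. The median of the 5 is therefore a description and no test of the family.

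Every ACS library lay above every control for 5 of the 10 genes, Ccl2, Ccl3, Ccl6, Ccl7 and Ccl20. Among all 18776 genes with a count in any library, 14.5% showed that order, and among the genes tested 16.7%. An exact two-sided permutation test over all 20 ways to label the libraries gave p = 0.1 for each of these 5, the smallest p that 3 against 3 libraries allow. The same exact permutation test gave p = 0.7 for Ccl11, 0.8 for Ccl5, 0.9 for Ccl21 and 1 for Ccl4.

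**Figure D2:**
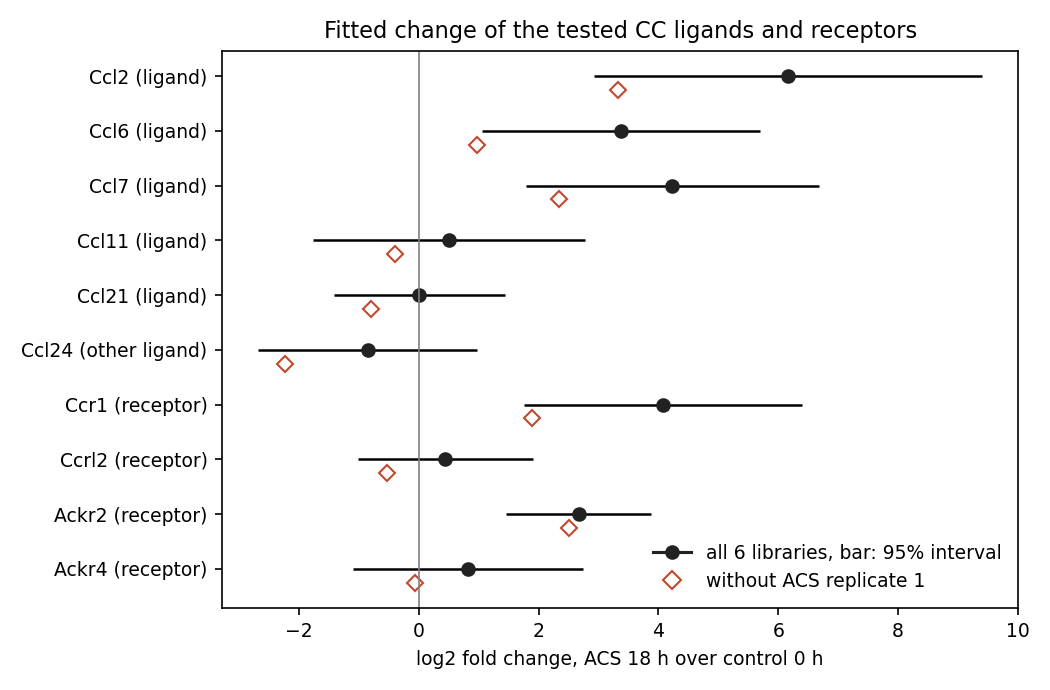
Log2 difference (ACS at 18 h minus control at 0 h) from edgeR for the CC ligands and 4 of the 5 receptors that passed the filter on low counts. Filled points with their 95% intervals are from all 6 libraries and open diamonds from the fit without ACS replicate 1. For Ccl2 the value is 6.17 with all libraries and 3.32 without ACS replicate 1, for Ccl6 it is 3.37 and 0.97, and for Ackr2 it is 2.67 and 2.51.

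The make-up of the family differed between the groups, and this measure does not use the library totals. Ccl2 gave 13.1%, 18.1% and 2.21% of the counts of the 10 genes in control replicates 1, 2 and 3, and 61.8%, 41.3% and 52.0% in ACS replicates 1, 2 and 3. The exact 95% intervals ran from 12.7% to 24.6% in the highest control and from 35.7% to 47.0% in the lowest ACS library. The share of Ccl2 was therefore above the controls in each ACS library, ACS replicates 2 and 3 included. Ccl21 gave 39.9%, 14.7% and 48.6% in the controls and 1.79%, 7.26% and 8.63% in ACS. The shares are parts of a whole, so a larger share of Ccl2 leaves smaller shares for the others. The fitted log2 difference of Ccl21 itself was 0.01, with a sign that depended on the scaling. Ccl6 gave 26.1%, 40.1% and 43.6% against 28.0%, 32.0% and 28.9%. The 10 genes had 153, 177 and 181 counts together in the controls and 3021, 303 and 394 in ACS. Their summed level was 7.45, 8.55 and 7.47 CPM in the controls and 282.5, 15.6 and 22.0 CPM in ACS. With Ccl2 left out the sums were 6.48, 7.01 and 7.30 against 107.8, 9.15 and 10.5 CPM. With Ccl6 left out as well they were 4.53, 3.58 and 4.04 CPM in the controls and 28.8, 4.16 and 4.18 CPM in ACS, so that ACS replicate 2 then lay below the highest control.

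**Figure D3:**
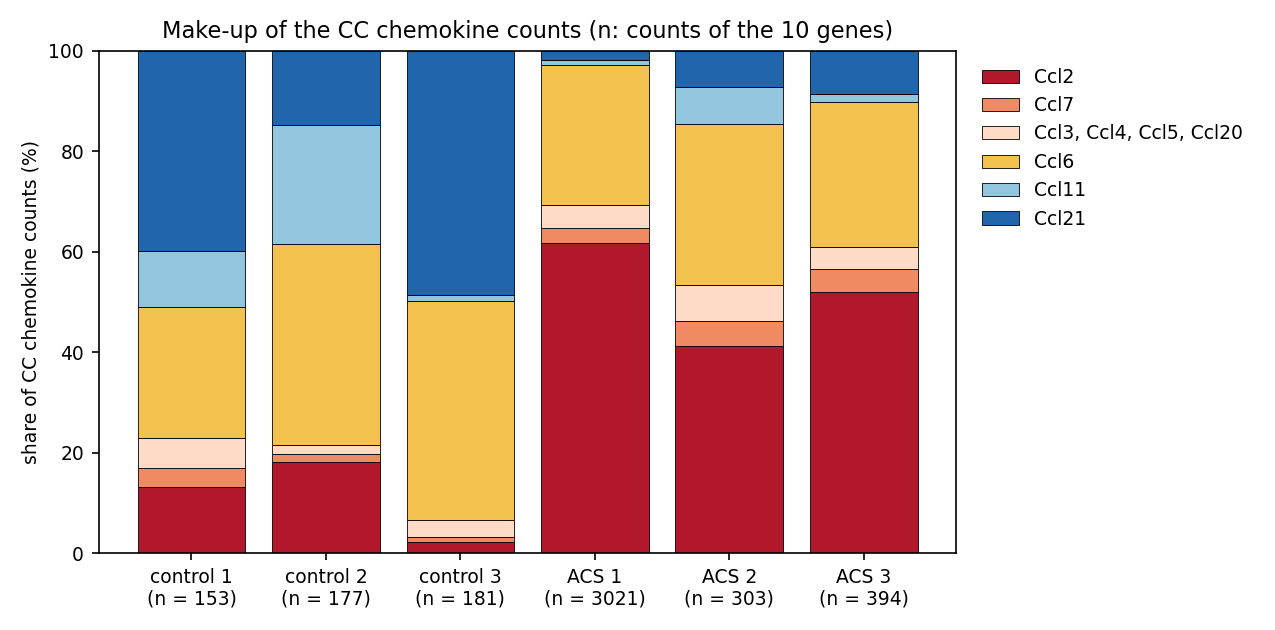
Share of each gene in the summed counts of the 10 CC chemokines, in percent, for each of the 6 libraries, with the summed count under each bar. The Ccl2 segment is between 2.21% and 18.1% in the controls and between 41.3% and 61.8% in ACS, and that of Ccl21 is at most 8.63% in ACS. The shares are parts of a whole, so a smaller share is not by itself a lower level.

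Levels of different genes were compared per length, in FPKM, which divides a gene's count by its length and the library total. In the controls the order of mean FPKM was Ccl21 at 3.52, Ccl6 at 2.36, Ccl2 at 1.19, Ccl11 at 1.08, Ccl5 at 0.537, Ccl7 at 0.226 and Ccl3 at 0.021, with Ccl4, Ccl19 and Ccl20 listed at 0. In ACS, by means that ACS replicate 1 carried, it was Ccl2 at 58.9, Ccl6 at 17.0, Ccl3 at 4.05, Ccl7 at 3.14, Ccl21 at 2.67, Ccl11 at 1.17, Ccl20 at 0.463, Ccl5 at 0.458 and Ccl4 at 0.184, with Ccl19 listed at 0. By the ACS median the order after Ccl2 and Ccl6 was instead Ccl21 at 2.15, Ccl11 at 1.123, Ccl7 at 1.119, Ccl3 at 0.489, Ccl5 at 0.473 and Ccl20 at 0.403, so the place of Ccl3 rests on ACS replicate 1. The ranges of neighbours in both orders overlapped, except those of Ccl7 and Ccl3 in the controls, and Ccl2 was first and Ccl6 second in 3 of 3 ACS libraries. In FPKM Ccl2 was at 156, 7.73 and 13.0 in ACS replicates 1, 2 and 3 and Ccl6 at 42.9, 3.64 and 4.39. Among all genes of the table Ccl2 ranked 10576 by mean FPKM in the controls and 753 in ACS, or 3172 by the ACS median.

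ACS replicate 1 exceeded the mean of ACS replicates 2 and 3 by different factors from gene to gene. In CPM the factor was 32.6 for Ccl3, 19.6 for Ccl2, 13.9 for Ccl6, 9.48 for Ccl7, 3.83 for Ccl11, 3.34 for Ccl21, 1.56 for Ccl5 and 0.623 for Ccl20. The mean of ACS replicates 2 and 3 over the control mean was 9.97 for Ccl2, 5.12 for Ccl7, 1.97 for Ccl6, 0.748 for Ccl11 and 0.578 for Ccl21.

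On build Rnor 6.0, which the submitters' processing notes name, the genes fall on 3 chromosomes. Ccl2 (ENSRNOG00000007159, chr10:69412017-69413870), Ccl7 (ENSRNOG00000000239, chr10:69423086-69424979) and Ccl11 (ENSRNOG00000007335, chr10:69434941-69439575) lie in a row on the plus strand, with 9215 and 9961 bases between neighbours. These 3 neighbours differed in their values, since the groups of Ccl11 overlapped and those of Ccl2 and Ccl7 did not. Farther along chromosome 10 are Ccl5 (ENSRNOG00000010906, chr10:70739800-70744315), Ccl6 (ENSRNOG00000030021, chr10:70797124-70802782) and Ccl3 (ENSRNOG00000011205, chr10:70869513-70871066) on the minus strand and Ccl4 (ENSRNOG00000011406, chr10:70884531-70886355) on the plus strand. In that row Ccl6 and Ccl3 were higher in every ACS library, Ccl5 was not, and Ccl4 had counts in 1 library. Ccl19 (ENSRNOG00000015668, chr5:58181026-58183017) and Ccl21 (ENSRNOG00000034290, chr5:58197680-58198782) share a minus-strand locus, and Ccl20 (ENSRNOG00000015992, chr9:88918433-88921001) lies alone on the plus strand.

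**Figure D4:**
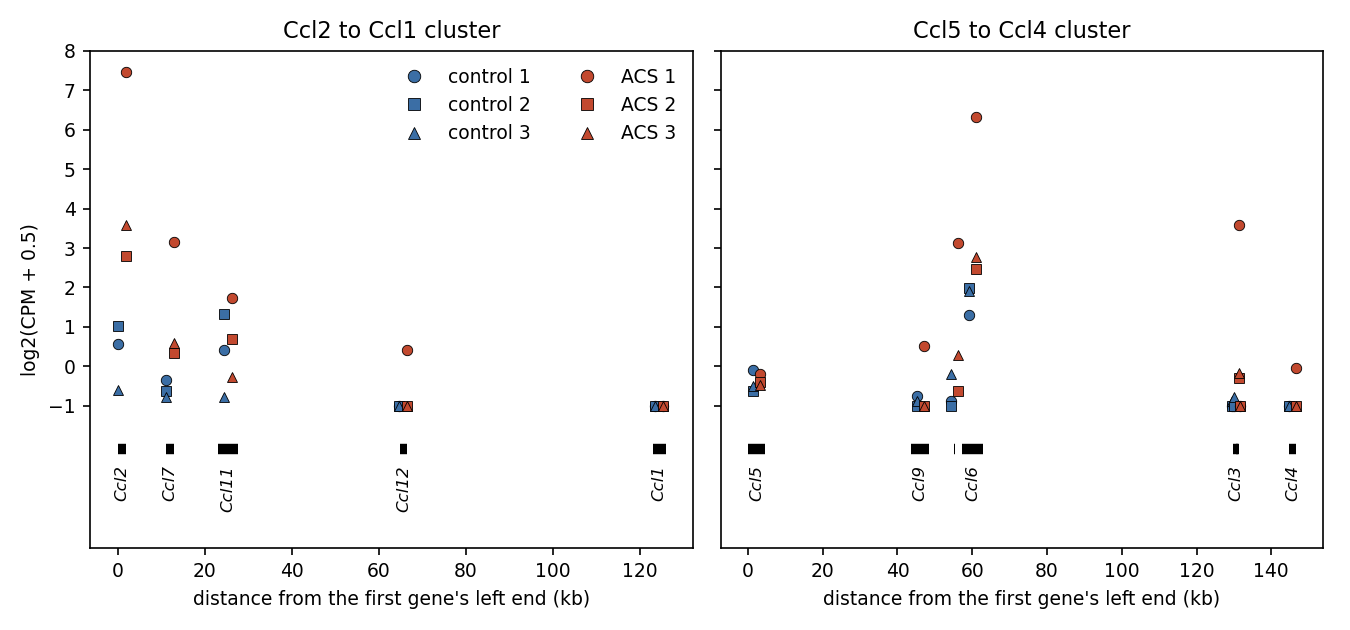
The 2 CC chemokine loci of chromosome 10, with each gene drawn to scale as a black bar by its distance in kilobases from the first gene, and above it log2(CPM + 0.5) in each of the 6 libraries. The unlabelled thin bar beside Ccl6 is an unnamed gene model. Ccl2 and Ccl7 are higher in each ACS library and their neighbour Ccl11 is not, and Ccl6 and Ccl3 are higher while Ccl5 is not.

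Of 15 listed CC receptors and atypical receptors, 14 matched a gene, 5 passed the filter and 1, Ackr2, rose past the adjusted threshold. Over all genes tested, 3.43% passed in the higher direction. Every ACS library lay above every control for 2 of the 14, Ackr2 and Ccr1. That order was shown by 14.5% of all genes with a count and 16.7% of the genes tested. Ackr2 takes up inflammatory CC chemokines without signalling. It had 11, 5 and 13 counts in the controls and 37, 67 and 29 in ACS, or 0.536, 0.242 and 0.536 CPM against 3.46, 3.44 and 1.62 CPM. The groups did not overlap, and ACS replicates 1 and 2 were level. The log2 difference was 2.67 (SE 0.533, 95% interval 1.45 to 3.88; adjusted p = 0.0363), and 2.51 without ACS replicate 1 (adjusted p = 0.0341). It was not past the threshold without ACS replicate 2 (adjusted p = 0.0795) or without control replicate 1, 2 or 3 (0.173, 0.173 and 0.134). In those 3 fits without a control library 0 genes passed at all, and the log2 difference of Ackr2 was 2.77, 2.33 and 2.80.

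Ccr1, a receptor for Ccl3, Ccl5 and Ccl7, had 13, 16 and 14 counts in the controls and 311, 47 and 45 in ACS. The groups did not overlap; the log2 difference was 4.07 (SE 1.02; adjusted p = 0.0588). Leaving out ACS replicate 1 gave 1.89, past the threshold (adjusted p = 0.0365). Ccrl2, which binds chemerin, had a log2 difference of 0.44 (adjusted p = 0.703), and Ackr4, which takes up Ccl19 and Ccl21, one of 0.82 (adjusted p = 0.588); both signs turned without ACS replicate 1, to -0.53 and -0.060. Ccr2, the receptor of Ccl2, had 1, 2 and 0 counts in the controls and 15, 2 and 1 in ACS and was not tested, and its model overlaps another on the same strand, so its counts are uncertain. Ccr6, the receptor of Ccl20, had counts in 1 library, 7 in ACS replicate 1. Ccr7, the receptor of Ccl19 and Ccl21, had 9, 2 and 4 counts in the controls and 4, 3 and 2 in ACS.

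All 10 further CC ligands that were listed matched a gene; 4 of them (Ccl1, Ccl25, Ccl26 and Ccl28) had 0 counts in all 6 libraries. Ccl24, a further eosinophil attractant, was the 1 tested and did not pass, with 16, 50 and 34 counts in the controls and 22, 5 and 7 in ACS (log2 difference -0.85, SE 0.802; adjusted p = 0.553). The log2 difference was -2.23 without ACS replicate 1, with an adjusted p of 0.0845. The other 5 were not tested, and in none of them did every ACS library lie above every control.

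By root mean square difference over the 6 libraries in log2(CPM + 0.5) relative to the control mean, 4 of the 5 genes nearest to Ccl2 among 11983 were Fosl1 (0.483), Lilrb4 (0.567), Slpi (0.582) and Cxcl2 (0.679). Fosl1, a subunit of AP-1, was at 99.0, 4.32 and 6.13 CPM in ACS replicates 1, 2 and 3. Cxcl2, a chemokine that attracts neutrophils, was at 55.8, 0.823 and 5.80 CPM. These 4 were highest in ACS replicate 1, as Ccl2 was. This likeness is a description of 6 libraries that fall in 2 groups, with no test.

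The summed levels of the monocyte and macrophage list and of the neutrophil list were highest in the same library as Ccl2. So were those of the receptor, other CC ligand, T and NK, dendritic, eosinophil and mast, lymphatic and blood endothelial lists. The fibroblast and muscle fibre sums were highest in ACS replicate 3. Monocyte and macrophage markers (14 matched, 13 tested, 1 higher, 0 lower) summed to 60.0, 92.7 and 80.7 CPM in the controls and 1830, 210.3 and 140.0 CPM in ACS replicates 1, 2 and 3. Lyz2, a lysozyme of myeloid cells not particular to macrophages, was at 22.2, 36.6 and 23.8 CPM against 1552, 94.1 and 78.0 CPM. It so made up most of the sum in ACS replicate 1 (log2 difference 4.38, adjusted p = 0.0649, and 1.64 and 0.0131 without that library). The groups of Mrc1 and Cd163, both of resident macrophages, overlapped. Of the 13 tested by edgeR, 12 had a positive log2 difference and 10 an unadjusted p under 0.05, Adgre1 among those 10. Across all genes tested 23.5% had such a p. Every ACS library lay above every control for 7 of the 14, against 16.7% of all genes tested. Cd68, Cd14 and Fcgr1a were among these, with log2 differences of 3.21, 3.02 and 3.57 (adjusted p = 0.0626, 0.0849 and 0.0844). Only 1 went the other way. Adgre1, a surface marker of macrophages, was at 1.36, 3.19 and 1.69 CPM in the controls and lower in ACS, at 1.22, 0.411 and 0.948 CPM (log2 difference -1.30, adjusted p = 0.203). C1qa and Csf1r had log2 differences of 0.09 and 0.46 with overlapping groups (adjusted p = 0.8998 and 0.653), and Gpnmb was the 1 past the threshold (2.50, adjusted p = 0.0339). Cd68, Cd14, Fcgr1a, Adgre1, C1qa, Csf1r and Gpnmb were singled out after their values were seen. Neutrophil markers (11 matched, 6 tested, 6 higher) summed to 2.14, 1.498 and 5.98 CPM in the controls and 396.7, 26.2 and 82.4 CPM in ACS. Over all genes tested, 3.43% passed in the higher direction. Trem1 (2, 0 and 1 counts in the controls) and Mmp8 (5, 3 and 9) passed the filter on low counts only through their ACS counts. The 6 of 6 is therefore no test of the list. Among the neutrophil markers Csf3r, S100a9 and S100a8 had adjusted p-values of 0.0436, 0.0397 and 0.0287 by edgeR. Mpo, of neutrophil granules, and Elane were not tested and were singled out after their values were seen. Mpo had 0, 3 and 0 counts in the controls and 0, 0 and 2 in ACS, too few to compare. Elane had 0 in each control and 8, 0 and 1 in ACS. The part of the monocyte, macrophage and neutrophil markers in the chemokine values was not tested.

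T and NK cell markers (12 matched, 1 tested, 0 called) summed to 0.628 to 1.24 CPM in the controls and 0.781 to 6.17 CPM in ACS; no CD3 chain had over 6 counts in a library. Lymphatic endothelial markers, listed beside Ccl21, summed to 29.2 to 40.2 CPM in the controls and 53.5 to 168.7 CPM in ACS (6 tested, 0 called, 3 with an unadjusted p under 0.05). Their members Lyve1, Pdpn and Flt4 had log2 differences of 2.02, 4.15 and 1.17 (adjusted p = 0.0534, 0.0518 and 0.0748), and Pdpn is also a fibroblast marker. Pdpn was at 1.95, 1.11 and 1.61 CPM in the controls and 70.1, 6.17 and 7.19 CPM in ACS, and without ACS replicate 1 its log2 difference was 2.10 (adjusted p = 0.0125). Prox1, the lymphatic transcription factor, had a log2 difference of -0.03 (adjusted p = 0.973; singled out after its value was seen). Fibroblast markers summed to 695.1 to 1083 CPM in the controls and 2395 to 2973 CPM in ACS, and eosinophil and mast cell markers to 6.23 to 13.1 CPM and 6.75 to 34.7 CPM, each with 0 called. Dendritic cell markers (4 tested, 0 called) summed to 26.5 to 43.0 CPM and 34.4 to 63.5 CPM, and blood endothelial markers (7 tested, 1 higher) to 233.7 to 367.3 CPM and 180.6 to 596.3 CPM. Over all genes tested, 3.43% passed in the higher direction and 23.5% had an unadjusted p under 0.05 by edgeR. The part of the cells of these lists in the result was not tested.

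**Figure D5:**
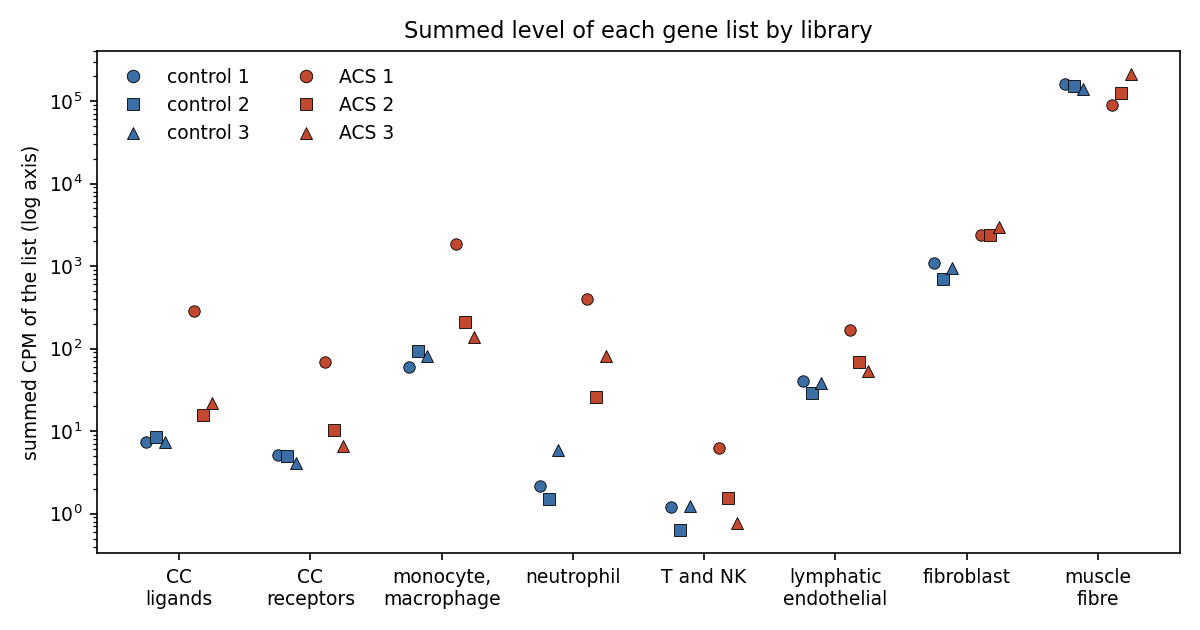
Summed TMM-scaled CPM of the CC chemokines, their receptors and 6 marker lists in each of the 6 libraries on a log axis, with 1 point per library. The CC chemokine, receptor, monocyte and macrophage, neutrophil, lymphatic endothelial and fibroblast sums are higher in all 3 ACS libraries than in any control. Of these, all but the fibroblast sum are highest in ACS replicate 1. The T and NK sum and the muscle fibre sum are not above the controls in every ACS library.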

How the data were processed

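The authors' deposited table gives counts and FPKM per gene, per the file headers. HISAT2 2.0.4, StringTie 1.3.0 and build Rnor 6.0 are named in the submitters' processing notes. The counting program, strand setting and treatment of multi-mapping reads were not given in the sources used here. FPKM equalled the count over 1 length per gene and the library total, within 0.1%, in all 13409 genes checked, so both units come from the same counts. No per-sample column was left unused.

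Counts were tested with edgeR 4.0.16 (R 4.3.3) by quasi-likelihood, ACS against control, after filterByExpr (minimum count 10, minimum total 15), which left 12873 of 18776 genes with a count, with TMM scaling and Benjamini-Hochberg adjustment over all tested genes. A single count was worth 0.0413 to 0.0935 CPM, so genes near 0 are imprecise. Ratios of summed counts have exact 95% binomial intervals, and a group at 0 was set to a floor of 3 counts, which gives a ratio with no interval. DESeq2 1.42.0 and limma 3.58.1 served as alternatives. The edgeR, DESeq2 and limma fits were tested on simulated data.

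Named were all 10 members, each receptor and other CC ligand that passed the filter, up to 3 genes of the highest mean CPM per marker list (in the text for 3 lists only), and the 5 genes nearest to Ccl2, the member of highest mean CPM; untested receptors are given for the members' known pairs. A receptor and a gene near Ccl2 that this rule names are not reported here. Members and lists were chosen with earlier results of these data known. Promoter windows are from RefSeq (GRCr8).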

Additional observations from a re-analysis of the deposited data

How the results depend on the processing

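Ccl2 and Ccl6 had a positive log2 difference in all 20 alternatives and Ccl7 in all 17 that gave one; Ccl2 passed the threshold in 9 of 19 with an adjusted p (0.0151 to 0.201), Ccl7 in 5 of 17 and Ccl6 in 2 of 19. Genes called higher and lower (442 and 91) were 342 and 225 with library totals, 755 and 153 with no filter, 1320 and 429 with DESeq2, 262 and 71 with limma-voom, 1059 and 356 with voom quality weights (added after seeing the data), 249 and 268 with limma on log2(FPKM + 1), 199 and 131 with FPKM + 0.1, 24 and 13 with FPKM + 1 and no filter, 248 and 32 with a term for the libraries whose column names begin with ji, and 171 and 30 without those libraries. Leaving out 1 library gave 0 to 1286 higher and 0 to 398 lower, with 0 in both directions whenever a control library was left out. The calls that were higher made up 82.9% of all, 60.3% with library totals, 48.2% with FPKM + 1 and 60.3% with FPKM + 0.1; the median log2 difference of all genes was -0.32, -0.30 and -0.37 under these. Members called higher (0) were 1 with library totals, 5 with no filter, 1 with the filter of 50 counts, 2 with DESeq2, 2 with quality weights, 1 with the ji term and 0 to 3 leaving out 1 library. Receptors called higher (1) were 2 with library totals, 2 with no filter, 0 with limma-voom and 2 with quality weights. They were 0 with FPKM + 0.1, 0 with FPKM + 1 and no filter, 0 with the ji term and 0 without the ji libraries. Leaving out 1 library gave 0 to 3 receptors. The filter of 50 counts left no receptor to test. Same-numbered libraries did not deviate together (r = -0.066, 0.0014 and 0.033 across genes), and not every library correlated best with its own number; the replicate block gave 442 higher and 63 lower, with 2 members (Ccl2 and Ccl7). The sign turned for Ccl21 with library totals (-0.41), no filter (-0.056), limma-voom (-0.24), quality weights (-0.65), FPKM + 1 (-0.31, also with no filter), FPKM + 0.1 (-0.42), the block (-0.10), without control replicate 2 (-0.38) and without ACS replicate 1 (-0.80; range leaving out 1 library -0.80 to 0.34); for Ccl11 without control replicate 3 (-0.10) and ACS replicate 1 (-0.40; range to 1.56); for Ccrl2 with quality weights (-0.31), FPKM + 1 and no filter (-0.020) and without ACS replicate 1 (-0.53; range to 0.75); and for Ackr4 with limma-voom (-0.037) and without ACS replicate 1 (-0.060; range to 1.37). The cause was not tested. Depth limits Ccl4, Ccl5, Ccl19 and Ccl20, whose libraries held 11 counts or fewer.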

Other observations

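The unnamed gene model Rn60_10_0705.2, singled out after its values were seen, lies 1882 bases from Ccl6 on the same strand (chr10:70794893-70795241, Rnor 6.0). It had 1, 0 and 9 counts in the controls and 88, 3 and 13 in ACS replicates 1, 2 and 3, so its groups overlapped although ACS replicate 1 was the highest library, as it was for Ccl6.

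Among the CC ligands outside the 10, Ccl9, Ccl12, Ccl17 and Ccl22 had most of their counts in ACS replicate 1, a pattern seen after their values were known. Ccl12, which lies in the row of Ccl2 on chromosome 10, had 9 counts there and 0 in the other 5 libraries. Ccl17, which attracts T cells through Ccr4, had 11 there, 1 in ACS replicate 3 and 0 in the other 4. Ccl9 had 10 there and 2, 0 and 1 in the controls. Ccl22 had 3 there, 2 in control replicate 1 and 0 in the other libraries. Ccl27, a chemokine of skin, had 4, 8 and 9 counts in the controls and 7, 6 and 6 in ACS, with no library apart.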
